A study of Homo sapiens with 4 samples.

Results

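The 41 genes described here are interferon-stimulated genes, with 2 interferon genes (IFNB1 and IFNL1) among them, chosen by name from the 47251 genes listed in each of 2 expression tables. All 41 had exactly 1 row in each table, and DDX58, now called RIGI, was listed under its older name. The cells were HCT116, an established human colon cancer line. In a plasmid experiment they received 2 µg of pCMV-entry plasmid with TTC22V1 (TTC22V1 overexpression) or control vector (empty vector), and in an siRNA experiment a pool of 3 siRNAs directed at TTC22 (TTC22 knockdown) or scramble siRNA, in either case at 100 nM in all. RNA was collected 48 hours after transfection, and each of the 4 groups was 1 library of polyadenylated RNA. Every library had been transfected and no untransfected library was analysed here, so a level set by delivery and a level the line holds without it cannot be told apart. With 1 library per group there is no replicate error and no test, and all differences are between single libraries.

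Interferons are secreted proteins that alert cells to viral nucleic acid. Sensors such as RIG-I (DDX58) and MDA5 (IFIH1) for duplex RNA, and cGAS with STING for cytosolic DNA, induce interferon beta and lambda, which act through receptors and the kinases JAK1 and TYK2 on transcription factors of the STAT family. STAT2 and IRF9 belong to the complex that binds the interferon-stimulated response element in promoters of genes such as IFIT1, MX1 and ISG15. In many cell types transfected nucleic acid can itself be sensed by this route, which is why the levels in plasmid and siRNA libraries are of interest.

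The letters that this complex is known to bind can be read in promoter windows of many members. RefSeq windows on GRCh38.p14, 250 bases before to 50 after an annotated start, were found for 34 members, with DDX58 matched as RIGI, and were searched for GAAA followed after any 2 bases by GAAA, on the gene's strand and, as TTTC, any 2 bases and TTTC, on the other. Of these 34 genes, 23 (67.6%) had a match in at least 1 window, against 1195 of all 27305 genes in the promoter table (4.38%). Members without a match included DDX58, STAT2, IRF1, IRF9, IFI35 and IFI16, and their windows only lack these exact letters. IRF7, IFIT2, OAS2, OASL, USP18, DHX58 and MX2 were not searched.

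The 8 stretches below, from RefSeq, belong to members that the results turn on: the highest member (ISG15), the member lower with knockdown (IFI6), 2 that stood apart between the experiments (IFIH1 and OAS3), 3 neighbours of the IFIT cluster, and DTX3L with its divergent neighbour PARP9. They run 5′ to 3′ on the gene's strand, and capitals mark the searched letters on either strand. The stretches are parts of the windows, and those of OAS3, IFIT5 and IFIT3 hold 1 of 2, 2 of 3 and 1 of 4 matches. GENCODE 44 exons cover all 30 bases of the OAS3 stretch, 20 of 30 for IFIT5 and 19 of 30 for IFIT3. For IFIT5 the covered bases belong to exons of IFIT5 and of LIPA, and the stretch runs 6 bases past the IFIT5 start. Overlapping matches, as in ISG15 and at the left of IFIH1, merge into a longer run of capitals.
ISG15 (chr1:1013337-1013506, plus strand): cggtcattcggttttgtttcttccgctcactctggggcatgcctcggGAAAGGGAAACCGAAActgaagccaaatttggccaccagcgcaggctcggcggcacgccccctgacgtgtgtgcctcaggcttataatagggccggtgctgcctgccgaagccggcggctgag
IFI6 (chr1:27672183-27672352, minus strand): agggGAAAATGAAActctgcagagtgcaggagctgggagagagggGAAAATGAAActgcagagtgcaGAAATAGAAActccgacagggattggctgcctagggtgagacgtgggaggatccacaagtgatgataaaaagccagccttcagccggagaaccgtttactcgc
IFIH1 (chr2:162318675-162318844, minus strand): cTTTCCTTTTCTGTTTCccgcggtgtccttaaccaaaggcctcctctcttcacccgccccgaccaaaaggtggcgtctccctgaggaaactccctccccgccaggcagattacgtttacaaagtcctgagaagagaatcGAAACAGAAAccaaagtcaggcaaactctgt
OAS3 (chr12:112938452-112938481, plus strand): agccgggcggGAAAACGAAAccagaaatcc
IFIT5 (chr10:89414544-89414573, plus strand): tttagTTTCGATTTCttaagTTTCAGTTTC
IFIT1 (chr10:89392503-89392532, plus strand): ttagTTTCACTTTCcccTTTCGGTTTCcct
IFIT3 (chr10:89332473-89332502, plus strand): atcagTTTCACTTTCctttcccctttcata
DTX3L (chr3:122564314-122564343, plus strand): agggacctccagggaagcGAAACTGAAAct

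Matches were found in promoters of high and low members alike. Among members averaging 1 FPKM or more across the 4 libraries, 14 of 20 searched (70%) had a match, and among those below it 9 of 14 (64.3%). The authors' values were read as FPKM, which are fragments scaled by gene length and library size, although no unit is stated. On that reading, levels of different genes can be set side by side. ISG15 at a mean of 163 FPKM and IFI44L at 0.0024 FPKM both held 2 matches. IFIT1, one of the genes best known for its response element, held 2 matches and averaged 0.0953 FPKM.

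**Figure D1:**
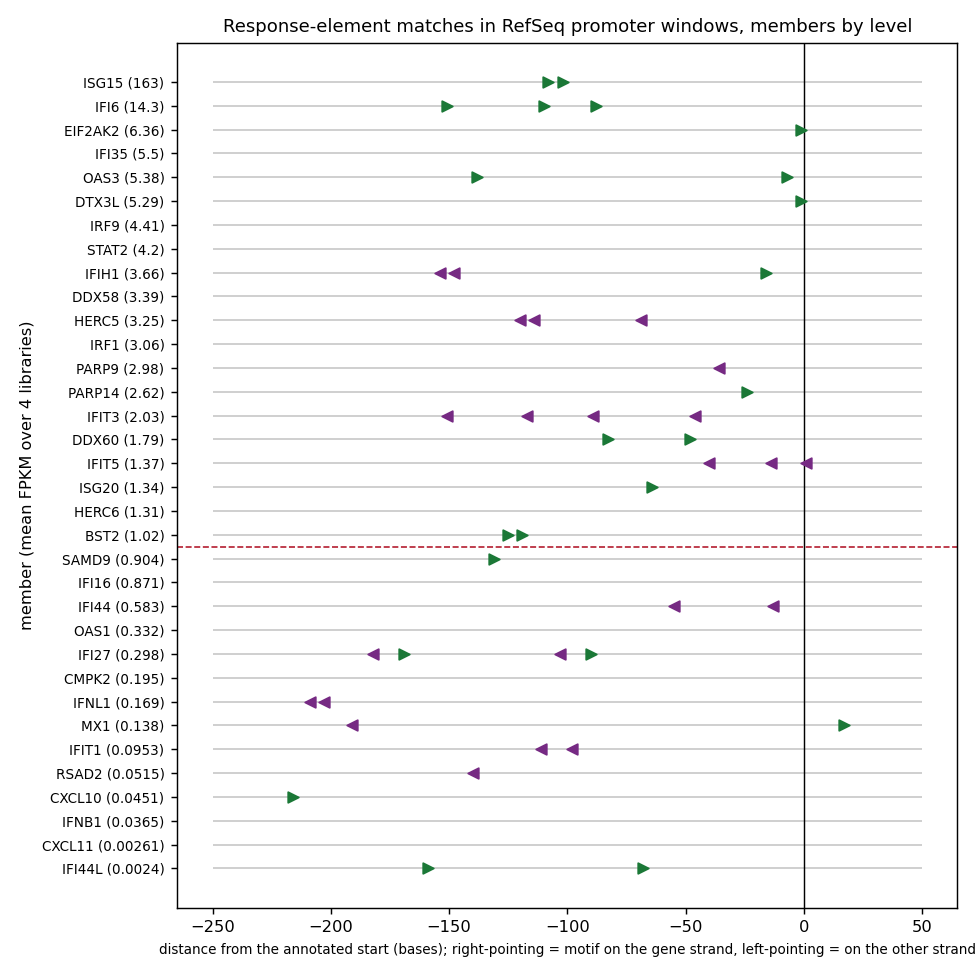
Positions of the searched letters in RefSeq promoter windows of 34 members, in bases from the annotated start, with genes ordered from the highest to the lowest mean FPKM over the 4 libraries and several windows of a gene drawn on its 1 line. Triangles point right for the gene's strand and left for the other, and the dashed line divides means above and below 1 FPKM. Matches occur on both sides of that line, in 14 of 20 genes above and 9 of 14 below.

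As a check of the labels, TTC22 stood at 24215 FPKM with overexpression against 4.46 FPKM in empty vector, and at 6.54 FPKM after knockdown against 10.7 FPKM with scramble siRNA. Of 7 colon epithelial markers, 6 were above 1 FPKM in every library, with EPCAM between 101 and 132 FPKM, while VIL1 was below 0.02 FPKM in all 4. Leukocyte, endothelial and fibroblast markers were below 1 FPKM except CD68 and COL1A1, and CD3E was at 0 in all 4. CD68 was at 5.76 FPKM with overexpression, 6.34 FPKM in empty vector, 37.2 FPKM after knockdown and 42.6 FPKM with scramble siRNA, and COL1A1 was between 1.82 and 2.99 FPKM. In the overexpression library 12.8% of the summed FPKM belonged to TTC22. With the libraries rescaled without TTC22, the members' median log2 fold for overexpression over empty vector was −0.082 in place of −0.23. The part of the TTC22 share in the values of other genes was otherwise not tested. Measured genes as a whole had a median log2 fold of −0.21 for overexpression over empty vector and −0.02 for knockdown over scramble siRNA. A log2 fold was taken on FPKM + 1, a gene was called measured when its mean in the pair was at least 1 FPKM, and higher or lower when the log2 fold was at least 1 in size (2-fold). Adding 1 understates the difference of low genes.

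Many of the genes that respond most strongly to interferon in general were near the bottom of the range in all 4 libraries. In every library 15 of the 41 members were below 1 FPKM: IFNB1, IFNL1, DHX58, IFIT1, OAS1, OAS2, MX1, MX2, RSAD2, CMPK2, IFI27, IFI44, IFI44L, CXCL10 and CXCL11. Another 17 were at or above 1 FPKM in every library, and 9 lay on both sides of it. Per library, 20 members were below 1 FPKM with overexpression, 15 in empty vector, 19 after knockdown and 18 with scramble siRNA. Of all 47251 rows, between 78.2% and 79.7% were below 1 FPKM in a library.

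**Figure D2:**
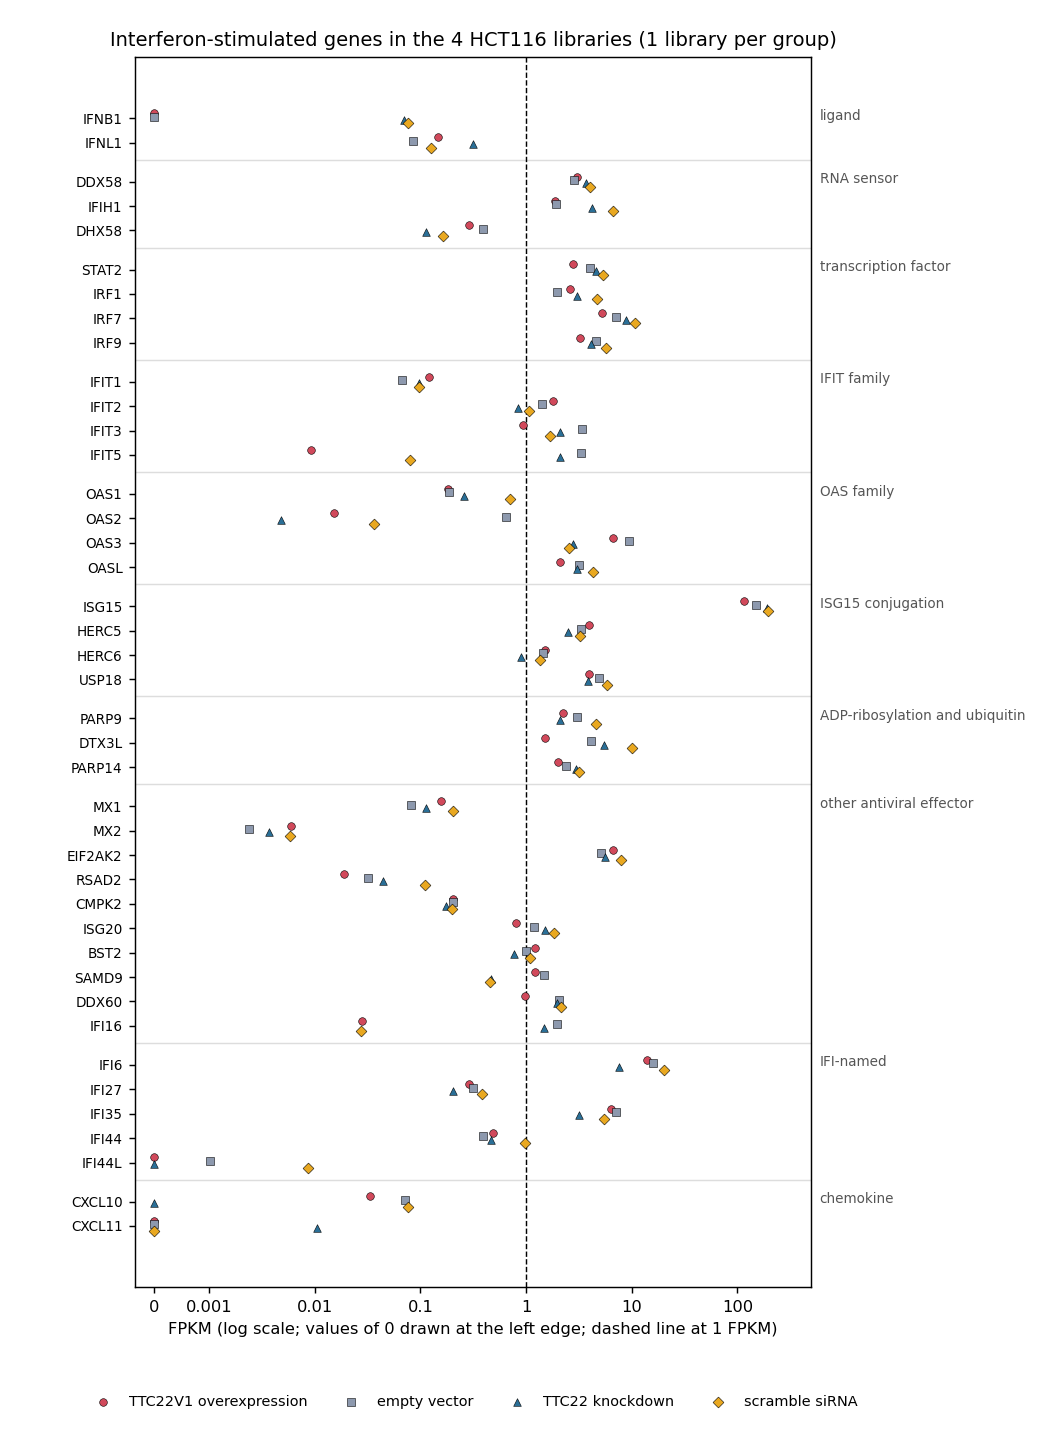
FPKM of the 41 members (rows, grouped by role) in the 4 libraries on a log axis, with values of 0 drawn at the left edge and a dashed line at 1 FPKM. ISG15 lies furthest right at 116 to 195 FPKM, 15 members lie left of the line in every library, and IFIT5 and IFI16 lie right of it only in empty vector and knockdown.

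Transcripts of the interferons themselves were scarce. IFNB1, which encodes interferon beta, was listed at 0 in both plasmid libraries, at 0.0695 FPKM after knockdown and at 0.0767 FPKM with scramble siRNA. IFNL1, a type III interferon of epithelia, was at 0.148 FPKM with overexpression and 0.0855 FPKM in empty vector, and at 0.317 FPKM after knockdown and 0.125 FPKM with scramble siRNA. Both genes were thus far below 1 FPKM everywhere, and with read numbers unknown the differences between such values could not be weighed. The chemokine genes CXCL10 and CXCL11, whose products attract T cells and which are strongly induced by interferons in many cells, lay between 0 and 0.076 FPKM.

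The RNA sensors were expressed at moderate levels and stood higher in the siRNA experiment. IFIH1 (chromosome 2, 162267074 to 162318684), which encodes the sensor of long duplex RNA MDA5, was at 1.87 FPKM with overexpression, 1.94 FPKM in empty vector, 4.23 FPKM after knockdown and 6.59 FPKM with scramble siRNA. Both siRNA libraries lay above both plasmid libraries, and scramble siRNA over empty vector gave a log2 difference of 1.37. DDX58 (RIG-I) was at 3.04 FPKM with overexpression, 2.82 FPKM in empty vector, 3.68 FPKM after knockdown and 4.01 FPKM with scramble siRNA, again with both siRNA libraries on top. DHX58, a regulator of both sensors, was between 0.113 and 0.388 FPKM and had its order turned round, with both plasmid libraries above both siRNA libraries.

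All 4 transcription factors of the group had their highest value with scramble siRNA. IRF7, the factor that amplifies interferon induction, was at 5.28 FPKM with overexpression, 7.09 FPKM in empty vector, 8.88 FPKM after knockdown and 10.8 FPKM with scramble siRNA. IRF1, a factor that activates antiviral genes directly, was at 2.60 FPKM with overexpression, 1.95 FPKM in empty vector, 3.03 FPKM after knockdown and 4.66 FPKM with scramble siRNA. STAT2 spanned 2.81 to 5.37 FPKM and IRF9 3.26 to 5.70 FPKM, both lowest with overexpression. None of the 4 reached 2-fold in either treatment comparison.

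ISG15, a ubiquitin-like modifier, was the highest member and made up between 59.6% and 70.3% of the summed FPKM of the 41 genes. It was at 116 FPKM with overexpression and 151 FPKM in empty vector, a log2 fold of −0.38 or −0.17 relative to the median of all genes. After knockdown it was at 193 FPKM against 195 FPKM with scramble siRNA, a log2 fold of −0.015. HERC5, the main ligase that attaches ISG15, was between 2.47 and 3.94 FPKM and its relative HERC6 between 0.904 and 1.53 FPKM, both highest with overexpression. USP18, the protease that removes ISG15 and restrains interferon signalling, was at 3.93 FPKM with overexpression against 4.94 FPKM in empty vector, and at 3.89 FPKM after knockdown against 5.87 FPKM with scramble siRNA. HERC5 and HERC6 were thus highest in another library than ISG15 and USP18, and none of the 4 passed 2-fold in a treatment comparison.

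The IFIT genes, whose products bind foreign RNA or block its translation, lie side by side on chromosome 10 and did not share a pattern. IFIT5 (ENSG00000152778, 89414568 to 89421605), with matches of the response element directly at its start, was at 0.00914 FPKM with overexpression against 3.29 FPKM in empty vector, and at 2.09 FPKM after knockdown against 0.0800 FPKM with scramble siRNA. Among measured members it was the only one past 2-fold in both treatment comparisons, with log2 folds of −2.09 and 1.52. With pair means of 1.65 and 1.08 FPKM, it passed the filter only through the high library of each pair. That it was the only one therefore depends on the filter, which IFI16, described below, did not pass. Set beside the control of the other experiment, the folds were −0.098 for overexpression over scramble siRNA and −0.47 for knockdown over empty vector, so the direction with knockdown turned. IFIT5 has at most 3 exons, and after rescaling without TTC22 its knockdown fold was 1.42 but its pair mean was under the level for measured genes. IFIT1, whose annotated gene ends 8080 bases before IFIT5, was at 0.121 FPKM with overexpression and 0.0667 FPKM in empty vector, and at 0.0970 FPKM after knockdown and 0.0962 FPKM with scramble siRNA. IFIT3 was at 0.932 FPKM with overexpression against 3.38 FPKM in empty vector (log2 fold −1.18, or −0.98 and under 2-fold relative to the median of all genes), and at 2.10 FPKM after knockdown against 1.69 FPKM with scramble siRNA (0.20). IFIT2 was at 1.79 and 1.42 FPKM in the overexpression and empty vector libraries and at 0.841 and 1.06 FPKM in the knockdown and scramble siRNA libraries. IFIT1, IFIT2 and IFIT3 overlap the gene LIPA on the other strand, and the strand setting of the quantification is not given in the sources used here, so reads of LIPA (9.84 to 14.4 FPKM) and of these genes may not be separable. The overlap was taken between whole genes, and shared exon bases were not counted.

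IFI16, which encodes a nuclear sensor of DNA and has up to 12 exons, was, like IFIT5, above 1 FPKM in empty vector and knockdown and near 0 in the other libraries. It was at 0.0283 FPKM with overexpression against 1.96 FPKM in empty vector, and at 1.46 FPKM after knockdown against 0.0274 FPKM with scramble siRNA. With pair means of 0.997 FPKM for overexpression and 0.746 FPKM for knockdown it was outside the measured genes in both comparisons. The basal keratin genes KRT14, KRT5, KRT6A and KRT17 stood high in the same libraries. KRT14 was at 0.0663 FPKM with overexpression, 41.7 FPKM in empty vector, 22.7 FPKM after knockdown and 0.111 FPKM with scramble siRNA. Other basal keratin genes did not share this order. With scramble siRNA against empty vector, KRT15 was at 14.3 against 6.80 FPKM and KRT16 at 1.37 against 0.344 FPKM. KRT6B was at 0.0888 FPKM after knockdown against 0.131 FPKM with scramble siRNA. Over 10 basal keratinocyte markers the summed level was 5.60 FPKM with overexpression and 91.7 FPKM in empty vector, with 1 and 8 genes at 1 FPKM or more. It was 89.1 FPKM after knockdown and 16.3 FPKM with scramble siRNA, with 7 and 2 genes at 1 FPKM or more. TP63 and DSG3 were at 0 with scramble siRNA, and TP63 was also low after knockdown, at 0.124 FPKM. KRT15 alone gave 4.86 FPKM of the sum with overexpression and 14.3 FPKM of it with scramble siRNA. The part of these transcripts in the IFIT5, IFI16 and IFIT3 values was not tested, and in bulk RNA fewer cells of a kind and less RNA per cell cannot be told apart. Of 10133 genes averaging 1 FPKM or more across the 4 libraries, 44 (0.434%) were lower with overexpression and higher with knockdown, both by at least 2-fold.

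**Figure D3:**
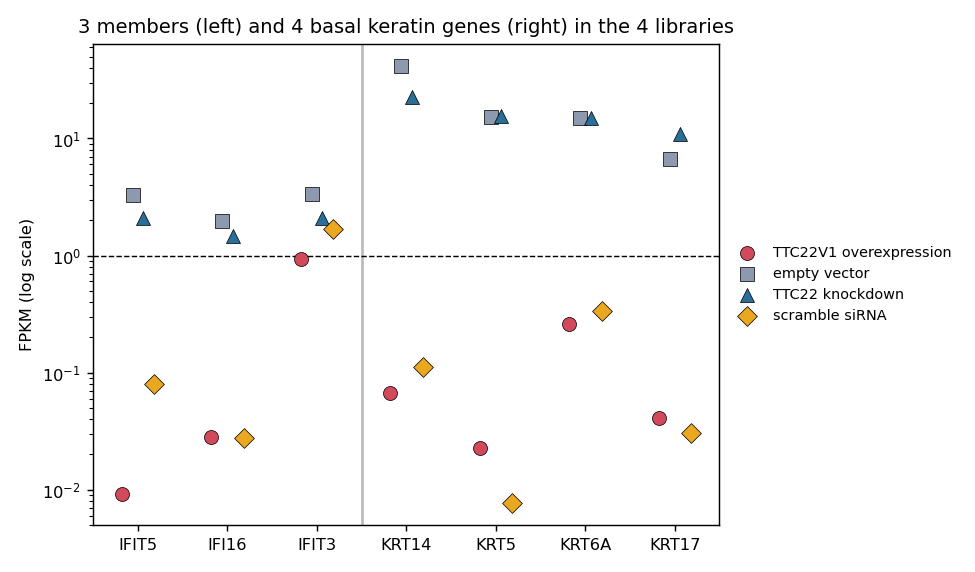
FPKM on a log axis of IFIT5, IFI16 and IFIT3 (left) and of the basal keratin genes KRT14, KRT5, KRT6A and KRT17 (right) in the 4 libraries, with a dashed line at 1 FPKM. For IFIT5, IFI16 and the 4 keratin genes the empty vector and knockdown points lie above 1 FPKM and the overexpression and scramble siRNA points below it, while 3 of the 4 points of IFIT3 lie above it.

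The OAS genes encode enzymes that make the second messenger which activates the nuclease RNase L, and they too differed among neighbours. OAS3 (chromosome 12, 112938051 to 112976460) was at 6.70 FPKM with overexpression and 9.51 FPKM in empty vector, and at 2.76 FPKM after knockdown and 2.53 FPKM with scramble siRNA. Both siRNA libraries lay below both plasmid libraries, the reverse of IFIH1. OAS1, which lies 4831 bases from OAS3, was between 0.184 and 0.699 FPKM and highest with scramble siRNA. OAS2, which lies 1934 bases to the other side of OAS3, was at 0.643 FPKM in empty vector and at 0.0367 FPKM or less in the other 3 libraries. OASL, an enzymatically inactive relative that supports RIG-I, spanned 2.08 FPKM with overexpression to 4.29 FPKM with scramble siRNA.

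PARP9 and DTX3L encode partners in a complex that modifies proteins with ADP-ribose and ubiquitin, and they are transcribed away from each other. In RefSeq a start of PARP9 lies 38 bases from that of DTX3L, and the match printed for DTX3L is the same 10 bases (chr3:122564332-122564341) that were found for PARP9. DTX3L was at 1.5 FPKM with overexpression against 4.08 FPKM in empty vector, and at 5.50 FPKM after knockdown against 10.1 FPKM with scramble siRNA. Its log2 folds were −1.02 and −0.77, of which the first is −0.81 relative to the median of all genes and so no longer past 2-fold. PARP9 was at 2.26 FPKM with overexpression against 3.01 FPKM in empty vector, and at 2.08 FPKM after knockdown against 4.58 FPKM with scramble siRNA, with log2 folds of −0.30 and −0.86. Both genes were highest with scramble siRNA, but they did not keep a common ratio, since DTX3L was below PARP9 with overexpression and above it in the other 3 libraries. PARP14, a further ADP-ribosyltransferase on the same chromosome, stayed between 1.99 and 3.15 FPKM. PARP9 and DTX3L overlap by 240 bases in GENCODE 44, so a share of their reads may be assigned to either.

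Among the other effectors IFI6 was the clearest difference with knockdown. IFI6 (ENSG00000126709, chromosome 1, 27666064 to 27672212, minus strand), a mitochondrial or endoplasmic reticulum protein that protects cells from death and flavivirus replication, was at 7.54 FPKM after knockdown against 20.1 FPKM with scramble siRNA, a log2 fold of −1.30. Beside empty vector the knockdown fold was −0.98. With overexpression IFI6 was at 14.0 FPKM against 15.8 FPKM in empty vector. The knockdown library was thus the low one of the 4, and the other 3 lay between 14.0 and 20.1 FPKM. EIF2AK2, the kinase PKR that halts translation on duplex RNA, was at 6.70 FPKM with overexpression against 5.11 FPKM in empty vector, and at 5.60 FPKM after knockdown against 8.0 FPKM with scramble siRNA. IFI35 was at 6.32 FPKM with overexpression against 7.11 FPKM in empty vector and at 3.15 FPKM after knockdown against 5.42 FPKM with scramble siRNA. DDX60, a helicase-family protein linked to RIG-I signalling, was at 0.976 FPKM with overexpression and between 1.98 and 2.17 FPKM in the other 3 libraries, without reaching 2-fold on the FPKM + 1 scale. SAMD9, which restricts poxviruses, was at 1.23 FPKM with overexpression and 1.47 FPKM in empty vector, and at 0.468 FPKM after knockdown and 0.456 FPKM with scramble siRNA. ISG20, an exonuclease, and BST2, which tethers virus particles to the cell surface, were between 0.770 and 1.83 FPKM. MX1, the GTPase often used as a read-out of interferon action, was between 0.0808 and 0.203 FPKM, and RSAD2 (viperin), which makes a chain-terminating nucleotide, between 0.0190 and 0.111 FPKM. CMPK2, a nucleotide kinase encoded beside RSAD2, lay between 0.175 and 0.203 FPKM, IFI27 between 0.202 and 0.385 FPKM and IFI44 between 0.390 and 0.987 FPKM. MX2 did not exceed 0.00599 FPKM and IFI44L did not exceed 0.00857 FPKM.

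As a group, the members' median was not higher in either treated library than in its control. With overexpression, 24 members were measured, of which 0 were higher (2.08% of 10191 measured genes were) and 3 were lower, IFIT5, IFIT3 and DTX3L (4.1% of measured genes were). No unadjusted test exists to set beside the 0, as there is 1 library per group. After centring on the median of all genes 0 were higher (2.64% of measured genes) and IFIT5 alone was lower (2.85%). The members' median log2 fold was −0.23 against −0.21 for all measured genes, 17 of the 24 (70.8%) lay below 0 against 75.4% of measured genes, and 12 of the 24 lay below the median of all genes. With knockdown, 22 members were measured, of which IFIT5 was higher (2.57% of 9744 measured genes) and IFI6 lower (2.19%), and the same was so after centring (2.65% and 2.11%). Here the median log2 fold was −0.30 against −0.02 for all measured genes, and 19 of 22 members (86.4%) lay below 0, against 54.2% of measured genes. The 3 members above 0 were IFIT5, IFIT3 and OAS3. Of the 24 members averaging 1 FPKM or more across the 4 libraries, 14 (58.3%) lay below 0 in both comparisons, against 43.2% of all genes at that level.

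**Figure D4:**
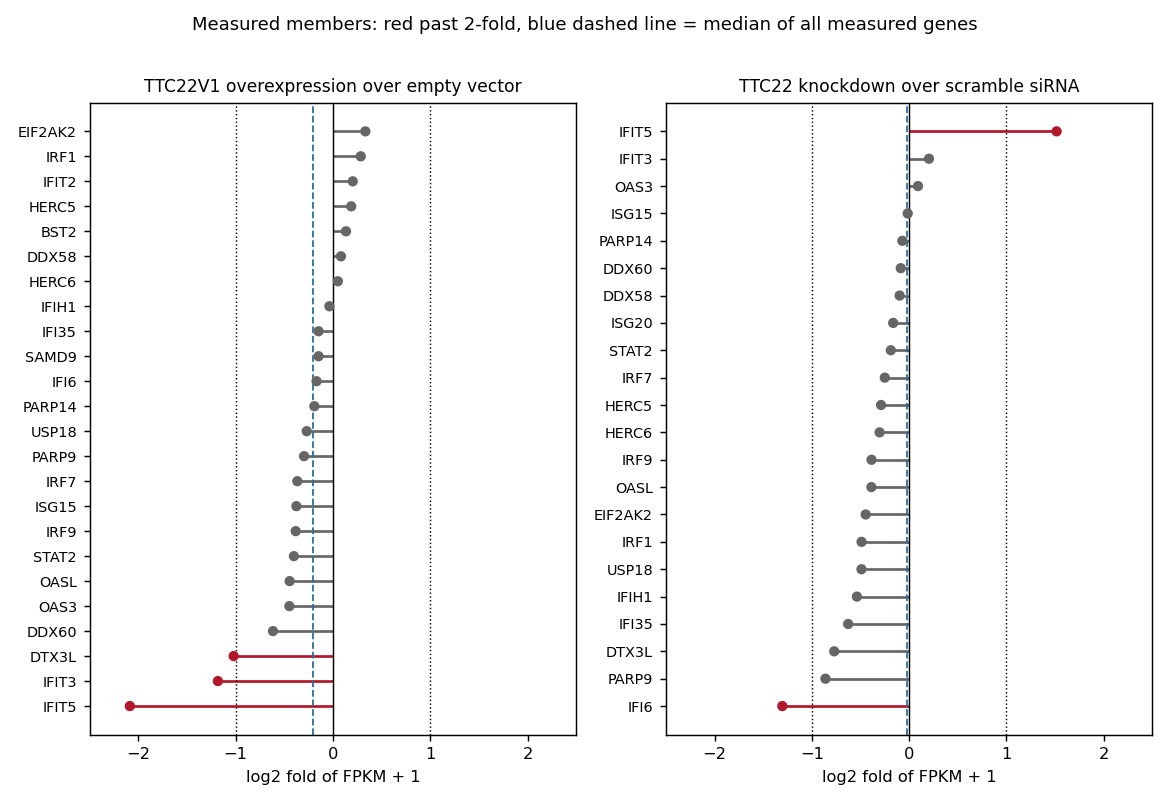
Log2 folds on the FPKM + 1 scale of the measured members, 24 for TTC22V1 overexpression over empty vector (left) and 22 for TTC22 knockdown over scramble siRNA (right). Red marks folds of at least 1 in size (dotted lines), and the blue dashed line is the median of all measured genes at −0.21 and −0.02, around which the members are spread on the left while most lie left of it on the right.

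The scramble siRNA library held the highest value of the 4 for most members. Of those 24 members, 16 (66.7%) were highest with scramble siRNA, against 18.2% of 10133 genes at that level. These were DDX58, IFIH1, STAT2, IRF1, IRF7, IRF9, OASL, ISG15, USP18, PARP9, DTX3L, PARP14, EIF2AK2, ISG20, DDX60 and IFI6. The overexpression library was highest for 4 (16.7% against 12.8% of all genes), IFIT2, HERC5, HERC6 and BST2. Empty vector was highest for 4 (16.7% against 49.2%), IFIT3, IFIT5, OAS3 and IFI35, and knockdown for 0 (19.8% of all genes). With each library divided by its own median the scramble siRNA count was 15 (62.5% against 23.4%), with 5 members for overexpression (20.8% against 21%), 3 for empty vector (12.5% against 29.2%) and 1 for knockdown (4.17% against 26.4%). The lean was not found in interferon-stimulated genes alone: 4 of 6 colon epithelial markers at that level (66.7%), EPCAM, CDH1, KRT18 and KRT19, and CD68 were also highest with scramble siRNA, and the part of what they share with the members was not tested. This view was chosen after the data had been seen, and it uses the same scramble siRNA library as the knockdown comparison, so both describe the level of that library. Scramble siRNA and knockdown were both transfected, at the same siRNA concentration, and the part of delivery in the difference between them was not tested.

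**Figure D5:**
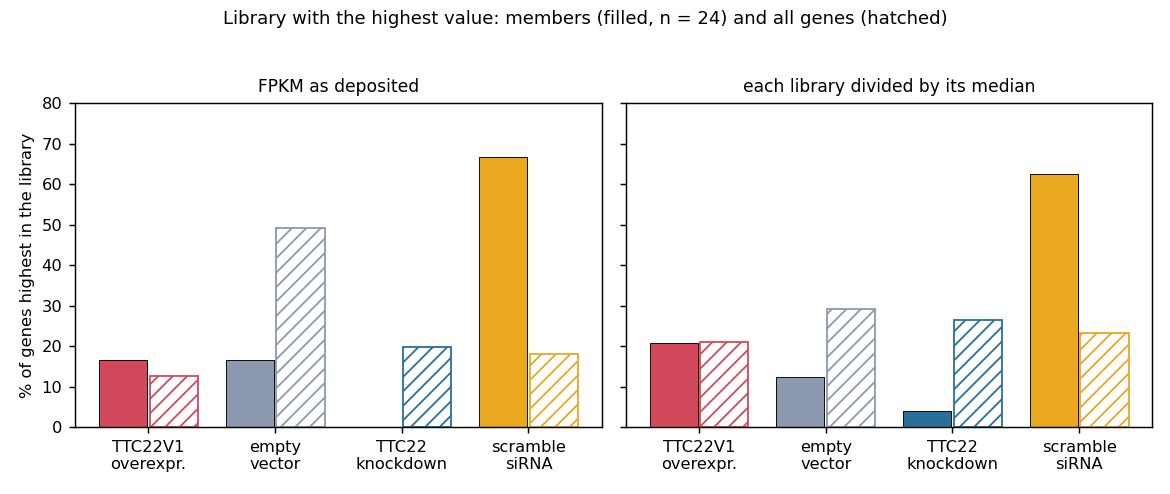
Percentage of genes that had their highest value in each library, for the 24 members averaging 1 FPKM or more (filled bars) and for all 10133 genes at that level (hatched bars), with FPKM as deposited (left) and after dividing each library by its median (right). The scramble siRNA bar of the members stands at 66.7% and 62.5%, against 18.2% and 23.4% of all genes.

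Between the experiments members lay in both directions. Both siRNA libraries lay above both plasmid libraries in 9 of the 24 members (37.5%, against 24.5% of all genes), which were DDX58, IFIH1, STAT2, IRF1, IRF7, ISG15, DTX3L, PARP14 and ISG20. They lay below both in 5 (20.8%, against 42.5% of all genes), which were IFIT2, OAS3, HERC5, HERC6 and IFI35. With each library divided by its median these counts were 12 (50% against 34.6%) and 3 (12.5% against 34.8%). Among the control libraries alone, scramble siRNA over empty vector gave 2 higher members, IFIH1 and DTX3L (4.99% of 10214 measured genes), and 2 lower, IFIT5 and OAS3 (14.1%). IFIT5, with a pair mean of 1.68 FPKM, passed the filter here too only through its high library, empty vector. After centring IRF1 joined the higher ones, giving 3 (8.29%), and the lower ones were the same 2 (8.82%). The members' median log2 difference was 0.30 against −0.25 for all measured genes, and 7 of 24 (29.2%) lay below 0, against 65.1% of measured genes. This comparison was chosen with the values known, and it uses the control libraries of the other comparisons. The 2 tables may have been scaled separately, and reagent, experiment and table coincide, so their parts in these differences cannot be told apart.

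The receptors and kinases that carry the interferon signal were expressed. Of 15 receptor and signalling genes, 14 were measured with overexpression, with 0 higher (2.08% of all measured genes) and 0 lower (4.1%), and all 15 with knockdown, with 0 higher (2.57%) and 1 lower (2.19%). With knockdown their median log2 fold was −0.27, against −0.02 for all measured genes. Of the 15, 12 (80%) lay below 0 and 3 above, against 54.2% of measured genes below 0. JAK1 was at 16.2 FPKM with overexpression and 15.7 FPKM in empty vector, and at 21.6 FPKM after knockdown and 23.7 FPKM with scramble siRNA. TYK2 lay between 4.48 and 8.24 FPKM, and the receptor chains IFNAR1 between 3.02 and 7.27 FPKM and IFNAR2 between 1.40 and 2.39 FPKM. IFNLR1, the receptor chain for interferon lambda, was at 2.11 and 1.21 FPKM in the overexpression and empty vector libraries and at 3.76 and 4.11 FPKM in the knockdown and scramble siRNA libraries. IFNGR1, a chain of the interferon gamma receptor, was at 18.3 FPKM with scramble siRNA against 4.83 FPKM in empty vector. The lower gene was SOCS3, a feedback inhibitor of cytokine signalling with up to 2 exons, at 1.30 FPKM after knockdown against 31.6 FPKM with scramble siRNA. Scramble siRNA was the highest library for 8 of these 15 genes (53.3%, against 18.2% of all genes).

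Of 16 sensing and adaptor genes, 11 were measured with overexpression, with 1 higher (2.08% of all measured genes) and 1 lower (4.1%), and 10 with knockdown, with 0 higher (2.57%) and 0 lower (2.19%). With knockdown their median log2 fold was −0.05, and 6 of the 10 (60%) lay below 0, against 54.2% of measured genes. The higher gene was MAVS, the mitochondrial adaptor of RIG-I and MDA5, at 12.6 FPKM with overexpression against 3.88 FPKM in empty vector (log2 fold 1.48), while it was at 4.88 FPKM after knockdown against 2.40 FPKM with scramble siRNA (0.79). The lower one was TRIM25, a ubiquitin ligase that acts on RIG-I, at 6.41 FPKM with overexpression against 19.0 FPKM in empty vector (−1.44), with 16.6 FPKM after knockdown and 17.8 FPKM with scramble siRNA. On the DNA side, MB21D1 (cGAS) was at 0.0514 FPKM with overexpression and 0.0304 FPKM in empty vector and listed at 0 in both siRNA libraries, and TMEM173 (STING) lay between 1.10 and 2.79 FPKM. TICAM1, the adaptor of TLR3 with up to 2 exons, was at 12.8 and 19.0 FPKM in the overexpression and empty vector libraries and at 0.306 and 0.221 FPKM in the knockdown and scramble siRNA libraries. TBK1, the kinase that activates IRF3, stood at 2.66 FPKM with knockdown and 2.29 FPKM with scramble siRNA, against 6.73 FPKM with overexpression and 5.97 FPKM in empty vector. Scramble siRNA was the highest library for 2 of 11 genes of this list (18.2%), the share it had among all genes.

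A second list held 32 interferon-stimulated genes outside the 41. Of its 22 genes averaging 1 FPKM or more, 14 (63.6%, against 18.2% of all genes) were highest with scramble siRNA, among them PLSCR1, HELZ2, ADAR, PML and ZC3HAV1. With knockdown, 22 were measured, 0 were higher (2.57% of all measured genes) and 2 lower (2.19%). The median log2 fold was −0.36, against −0.02 for all measured genes, and 18 of the 22 lay below 0, against 54.2% of measured genes. The lower ones were IFITM1, a membrane protein that blocks virus entry, at 4.45 FPKM after knockdown against 12.3 FPKM with scramble siRNA, and TRIM14, an adaptor of MAVS signalling, at 0.788 against 3.21 FPKM in the same libraries. With overexpression, 20 were measured, with a median log2 fold of −0.24, against −0.21 for all measured genes. Of these, 18 (90%) lay below 0, against 75.4% of measured genes, and 11 lay below the median of all genes. Of the 20, 0 were higher (2.08%) and 2 lower (4.1%), IFITM1 at 1.84 FPKM against 9.08 FPKM in empty vector and the secreted glycoprotein gene LGALS3BP at 13.7 FPKM against 51.1 FPKM. IFITM1 was thus past 2-fold below the control in both comparisons, while its neighbour genes IFITM2 (34.3 to 63.6 FPKM) and IFITM3 (283 to 442 FPKM) were not. The IFITM genes are close copies of each other, so reads assigned among them are uncertain. LGALS3BP was at 42.8 FPKM after knockdown against 22.3 FPKM with scramble siRNA. It was thus higher in the libraries where KRT14 was high, and the part of the basal keratin transcripts was not tested.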

How the data were processed

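Polyadenylated RNA of 4 HCT116 libraries, 1 per group, was sequenced as paired ends, per the labels' protocols. STAR, with no version, and hg38 are named in the submitters' processing notes. The deposited tables, 1 per experiment, hold expression values that the authors made, read here as FPKM from their range, because no header states a unit. The strand setting is not given in the sources used here, nor are quantifier, annotation or filters. Summed FPKM lay between 181102 and 205734 per library. Read depth is unknown, so no counting interval is given.

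Where a name repeats, the row with the highest sum was to be used, which no member needed. Log2 folds used a pseudocount of 1 FPKM, a pair mean of at least 1 FPKM and a size rule of 2-fold in place of a test. At these main settings, counts of members and list genes past 2-fold in the treatment comparisons are given beside the share of all measured genes called. All 41 members could be named. From the other lists up to 4 genes past 2-fold were named, plus a few fixed genes, 1 of which is not reported here, and further genes were named after their values were seen. The members and lists were chosen with earlier results of these data known. Genes were annotated with GENCODE 44 on hg38, and promoter windows are from RefSeq. The calculations ran in Python 3.11.15 with pandas 2.3.3 and were checked on simulated data. That check used levels of at least 5 FPKM, which most measured members did not reach, so it does not cover calls at lower levels. Comparisons across the experiments, the basal keratinocyte list and the count of the highest library were added after the data were seen.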

Additional observations from a re-analysis of the deposited data

How the results depend on the processing

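No paired analysis was possible because each group was 1 library and the labels give no replicate numbers. No replicate could be left out for the same reason. With overexpression, the 3 lower members became 1 after centring and at 4-fold and 0 at a mean of at least 5 FPKM, and the 0 higher became 1 beside the scramble siRNA control. The median of −0.23 became −0.024 after centring, −0.082 after rescaling without TTC22 and −0.052 without a filter. With knockdown, the 1 higher member became 0 after rescaling, at 5 FPKM, at 4-fold, with 4 or more exons and beside the empty vector control, and 2 without a filter. The 1 lower became 2 with a pseudocount of 0.1, 4 at 1.5-fold and 0 at 4-fold. The median of −0.30 became −0.42 with a pseudocount of 0.1 and also after rescaling, −0.11 without a filter and −0.49 at 5 FPKM. Except after centring, the share of all measured genes past the size rule was not computed at changed settings, here or below. The changed counts past the size rule therefore do not compare members with other genes.

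For scramble siRNA over empty vector, the 2 higher and 2 lower members became 1 and 1 at 5 FPKM and 0 and 0 at 4-fold, and 1 was lower with 4 or more exons. That median of 0.30 became 0.56 after centring, 0.074 without a filter, and 0.13 as a mean. Scramble siRNA was highest for 5 of 7 members at 5 FPKM (18.1% of all genes). Both siRNA libraries were above both plasmid libraries for 3 of those 7 (25.7%) and below for 2 (43.6%), and below for 3 of 24 after centring (34.8%) and 8 of 41 without a filter (18.2%). Beside the control of the other experiment the medians were −0.49 for overexpression and −0.084 for knockdown, and IFIT5 after knockdown turned to −0.47. Apart from IFIT5, no alternative run turned the direction of a member past 2-fold, and none turned a median. The causes of these shifts were not tested. Unknown depth limits every value near 0.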
